A study of Mus musculus with 14 samples.

Results

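The Prdm genes encode a family of zinc-finger regulators that carry a PR domain, a relative of the SET domain of histone methyltransferases. H3K27me3 was followed here at 7 of them: Prdm13, Prdm12 and Prdm8, which act in the developing nervous system, Prdm14 and Prdm1, known from germ cells and, for Prdm1, from plasma cells, and Prdm16 and Prdm6, known from brown fat and from vascular smooth muscle. A peak was counted for a gene when it overlapped the gene body or the 5 kb on either side (GENCODE M21, mm10). This gave 62 peaks out of 23668 listed in all, or 0.262% of them, and no peak was shared between genes. The genes had been picked with the group differences of these data known, so every difference between the groups is given as a description and without a test.

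H3K27me3 is the trimethylation of lysine 27 of histone H3. It is deposited by Polycomb repressive complex 2 (PRC2), whose catalytic subunit is EZH2, and it marks silent developmental genes, often as wide domains over CpG-rich gene starts. Regulators of lineages that a neuron has not taken, such as germ cells, sensory neurons or spinal interneurons, are typical carriers of the mark.

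To ask how H3K27me3 depends on the long noncoding RNA NeuID, ChIP-seq had been performed on wild-type primary hippocampal neurons. These were cultures from embryos of CD1 mice of mixed sex, and they received lipid nanoparticles with a gapmer, an antisense oligonucleotide that leads to cleavage of its RNA target. The NeuID knockdown group received the NeuID gapmer and the control group a non-targeting one, and the labels name 6 ChIP libraries and 1 input library for each. The deposited table holds 1 mean per group and peak, on the log2 scale of normalized reads, so the spread between libraries, the total reads per library and an SD could not be given. The overall means weight the control by 0.545, as 6 control and 5 knockdown libraries would. In a culture of many cells, fewer cells that carry the mark and less of the mark per cell cannot be told apart.

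As a check of the cell type, marker genes were searched for peaks within 1 kb of the gene start. A peak was found for 8 of 12 genes of other lineages (such as Gata4, Myod1 and Hand2), for 3 of 9 glial genes and for 5 of 12 neuronal genes. The neuronal genes with such a peak were Syt1, Slc17a7, Neurod2, Gad1 and Gad2, and the neuronal Map2, Tubb3, Snap25, Syn1, Stmn2, Camk2a and Rbfox3 had none there. Purity of the cultures was not tested by this.

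The sequences below come from the peak with the lowest difference at Prdm13, Prdm1 and Prdm12 and from the start peaks of Prdm13 and Prdm12, to show what lies under them. Whether sequence bears on the differences was not tested. They are the central 300 bases of a peak, read from GRCm38 on the strand of the gene, with each CG dinucleotide in capitals. The first comes from the Prdm13 peak that was lowest after knockdown (chr4:21683511-21683810, minus strand), and the next, which lies just upstream of the gene start, from the peak over that start (chr4:21686313-21686612, minus strand). They are followed by the Prdm1 peak that was listed at 0 after knockdown (chr10:44456343-44456642, minus strand). The Prdm12 pair holds the lowest peak inside the gene (chr2:31645112-31645411, plus strand) and the widest one over its start (chr2:31637749-31638048, plus strand).
Prdm13 lowest: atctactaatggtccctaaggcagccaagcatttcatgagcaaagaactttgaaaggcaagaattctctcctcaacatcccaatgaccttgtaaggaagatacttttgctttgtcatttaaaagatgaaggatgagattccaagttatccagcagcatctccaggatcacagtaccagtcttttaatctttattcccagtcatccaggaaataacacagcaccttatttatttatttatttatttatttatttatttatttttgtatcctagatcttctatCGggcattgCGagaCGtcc
Prdm13 start: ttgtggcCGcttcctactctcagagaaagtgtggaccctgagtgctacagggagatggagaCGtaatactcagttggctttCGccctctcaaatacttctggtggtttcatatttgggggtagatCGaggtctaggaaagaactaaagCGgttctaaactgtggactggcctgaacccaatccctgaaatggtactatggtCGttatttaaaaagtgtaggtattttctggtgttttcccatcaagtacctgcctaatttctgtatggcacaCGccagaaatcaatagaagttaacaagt
Prdm1 lowest: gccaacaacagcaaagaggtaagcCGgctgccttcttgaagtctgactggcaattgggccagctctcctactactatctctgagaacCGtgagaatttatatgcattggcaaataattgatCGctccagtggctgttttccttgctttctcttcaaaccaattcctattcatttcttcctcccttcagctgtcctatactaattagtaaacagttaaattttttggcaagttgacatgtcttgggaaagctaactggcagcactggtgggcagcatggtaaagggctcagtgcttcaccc
Prdm12 lowest: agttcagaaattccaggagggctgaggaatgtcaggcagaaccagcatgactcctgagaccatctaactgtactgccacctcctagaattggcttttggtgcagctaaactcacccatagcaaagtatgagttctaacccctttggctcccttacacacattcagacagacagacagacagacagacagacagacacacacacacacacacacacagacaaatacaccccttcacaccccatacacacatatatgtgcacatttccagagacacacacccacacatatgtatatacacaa
Prdm12 start: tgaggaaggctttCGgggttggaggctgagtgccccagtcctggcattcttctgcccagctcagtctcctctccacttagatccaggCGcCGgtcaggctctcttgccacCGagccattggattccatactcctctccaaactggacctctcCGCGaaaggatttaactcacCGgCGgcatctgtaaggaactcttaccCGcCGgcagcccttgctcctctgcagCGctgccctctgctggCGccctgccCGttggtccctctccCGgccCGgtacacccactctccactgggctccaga
The Prdm13 stretches hold 3 CG in the lowest peak and 7 at the start, the Prdm1 stretch 3, and the Prdm12 stretches 0 and 15. For comparison, the central 300 bases of all 23642 peaks on assembled chromosomes had a median of 4 CG, and 26.4% of them held at least 7 and 9.62% at least 15. The Prdm13 stretch from the lowest peak is mostly intron and ends in a coding exon, and it contains a run of attt repeats.

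Prdm13 directs the choice between inhibitory and excitatory neurons in the dorsal spinal cord and retina, together with Ptf1a. Its gene (chr4:21677480-21685963, minus strand, 8484 bp) carried 7 peaks that covered 75.9% of the window. The groups differed most at a peak in the middle of the gene, and were nearly equal over the start.

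The widest Prdm13 peak, of 3825 bp (chr4:21684551-21688375), lay over the gene start and the first coding exon, and the authors' log2 mean was 6.93 for the control group and 6.98 for the knockdown group. Upstream of it, a peak of 2587 bp (chr4:21688420-21691006) had 6.20 and 6.10. Both are among the strongest peaks listed, with only 0.553% and 1.81% of all peaks stronger.

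Only 118 bp downstream of the start peak, a peak of 1542 bp (chr4:21682891-21684432) had a mean of 5.64 in the control and 2.17 in the knockdown. Taken to the linear scale, these were 49.9 and 4.49 normalized reads, a control mean 11.1 times the knockdown mean. It contains the coding exons of 132 and 121 bp between the first and the last coding exon, with the introns beside them. The log2 difference, knockdown minus control, was -3.47, and among the 1501 peaks with an overall mean at least as high, 2 had a difference as low, itself included. The next peak downstream lies in the intron before the last exon, 782 bp wide (chr4:21681171-21681952), and had 3.77 and 2.54, a difference of -1.23.

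The 3′ end of Prdm13 was again covered in both groups. A peak of 3201 bp (chr4:21677469-21680669) over the last coding exon and the 3′ UTR had 7.01 in the control and 6.66 in the knockdown. Beyond the gene, a peak of 830 bp (chr4:21676373-21677202) had 3.77 and 4.39, higher in the knockdown, and one of 1260 bp (chr4:21674099-21675358) had 5.69 and 4.77. Thus 2 of the 7 peaks were lower by 1 or more, 3 were lower by less, and 2 were higher by less than 1. Of all listed peaks, 20.6% were lower by 1 or more.

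**Figure D1:**
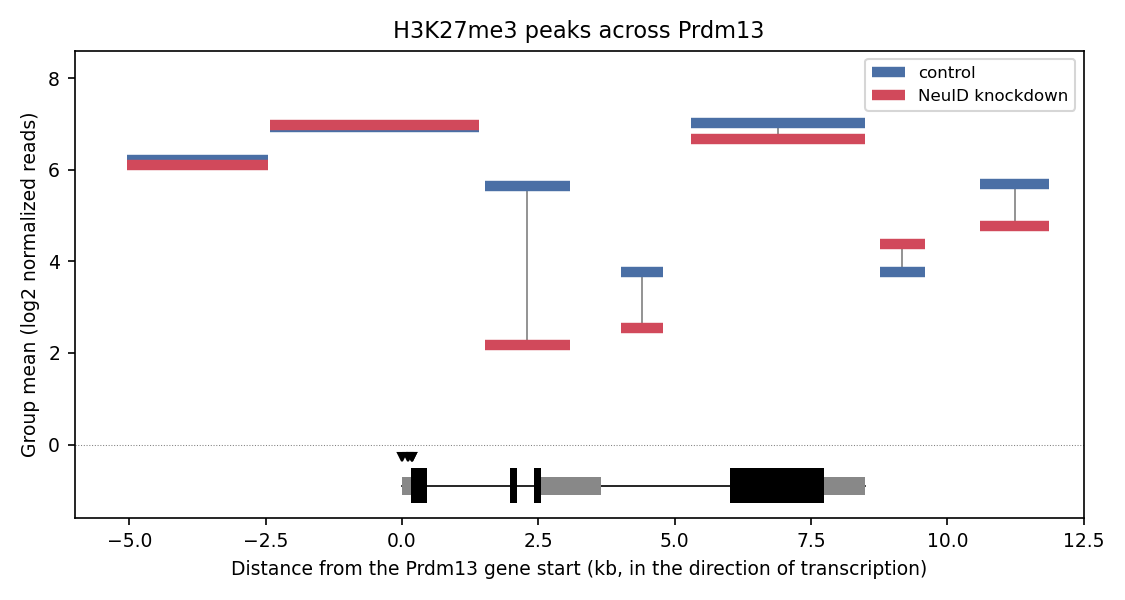
Both group means (y axis, log2 normalized reads) of the 7 Prdm13 peaks, drawn as bars as wide as each peak against the distance from the gene start in kb. The gene model below shows coding exons in black, other exons in grey and transcript starts as triangles, and the bar pair at 5.64 (control) and 2.17 (knockdown) stands beside the start pair at 6.93 and 6.98, which nearly touches.

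Just outside the 5 kb limit, the nearest peak upstream of Prdm13 (chr4:21691227-21692029) had 4.35 in the control and 3.60 in the knockdown, while the farthest peak inside it was the one with 6.20 and 6.10. Within 50 kb of the gene there were 9 peaks in all, and the second of the pair outside the limit had 3.78 and 4.03. The nearest protein-coding genes, Ccnc at 41738 bp and Tstd3 at 71419 bp, had 0 peaks in their windows. The other 8 of the 9 peaks differed by between -1.23 and 0.62.

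How often do adjacent peaks differ this much? Taking 479 pairs of adjacent peaks less than 500 bp apart whose overall means both reached 4.5, the group differences of the pair members were a median of 0.47 apart on the log2 scale. The Prdm13 pair of gene start and second-exon peak was 3.52 apart, and 0.418% of the pairs (2, itself included) were that far apart or farther. The pair was picked for this difference, so the share is a description of its place in the table.

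In base composition the lowest Prdm13 peak stood below the wider peaks of the gene. Its GC content was 45.0% and its observed to expected CpG ratio 0.206, against 0.487 for the start peak, 0.766 for the upstream peak and 0.783 for the 3′ peak. At the narrower peaks within 50 kb the ratio ran from 0.0664 to 0.407, and the median of all listed peaks was 0.218. The 830 bp peak downstream, which was higher in the knockdown, had the lowest ratio at 0.0664. Whether the CpG ratio bears on the differences was not tested. The 250 bases before the RefSeq start of Prdm13 (GRCm38.p6) held 7 CG, and 46.3% of the 32851 tabulated promoters held as many.

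Summed over its 7 peaks, Prdm13 had 454 normalized reads in the control and 355 in the knockdown, or 78.1% of the control. The lowest peak made up 45.6% of this net difference, the 3′ peak 28.1% and the 1260 bp peak beyond the gene 24.6%. On the log2 scale the sum differed by -0.36. It ranked 76th among 6154 protein-coding genes with a peak in their window by its control sum, and of the 76 genes with a sum at least as high, itself included, 5 had a difference as low. The median difference of those genes was -0.16, against 0.02 over all 6154.

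The 3 genes outside the family whose sums in both groups came closest to Prdm13, by Euclidean distance over the 2 group means, were Hoxb4, Grik3 and Evx2. Hoxb4, a homeobox gene of axial patterning, had 4 peaks and a summed difference of -0.35, and its lowest single peak differed by -0.82. Evx2, a homeobox gene beside the HoxD cluster, had 9 peaks, a summed difference of -0.34 and a lowest peak at -0.86. Grik3, a kainate receptor subunit, had 36 peaks, a summed difference of -0.30 and a lowest peak at -3.63. A like sum was thus reached over peaks of unlike differences.

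Prdm12 is required for the nociceptor lineage of sensory neurons. Its gene (chr2:31640037-31655795, plus strand) had 10 peaks, of which 5 were lower and 5 higher after knockdown. Of all listed peaks, 50.8% were lower. The widest of all 62 peaks, 7372 bp (chr2:31634214-31641585), covered the Prdm12 start. Its control mean was 7.66 and its knockdown mean 7.93. It overlapped the antisense gene Gm13425, which the mark at DNA does not separate from Prdm12. This single peak held 56.8% of the control sum of the gene, and the sum reached 107% of the control.

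Away from the start, 2 narrow intronic peaks of Prdm12 were lower. The one of 320 bp (chr2:31645103-31645422) had 3.01 in the control and 1.01 in the knockdown, or 8.03 and 2.01 normalized reads. The other, of 382 bp (chr2:31649358-31649739), had 3.51 and 1.56. These are weak peaks, with 80.2% and 50.3% of all peaks stronger, and the remaining 7 Prdm12 peaks inside or beyond the gene differed by between -0.77 and 0.92.

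Prdm8 works with the bHLH repressor Bhlhe22 in the wiring of cortical neurons. It had 6 peaks, none as wide as 1 kb and none over a transcript start (chr5:98167198-98188991, plus strand). Prdm8 summed to 74.3 normalized reads in the control and 66.5 in the knockdown, the lowest control sum of the 7 genes. The peak nearest the gene start, 893 bp upstream (chr5:98165934-98166305), was the one past a difference of 1, with 3.60 in the control and 2.07 in the knockdown. The widest Prdm8 peak, of 883 bp (chr5:98184498-98185380), lay over a coding exon and was higher in the knockdown, at 4.24 against 3.35. It also overlaps the antisense gene A730035I17Rik.

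Prdm14 maintains pluripotency and specifies primordial germ cells. Its 4 peaks all lay at the 5′ end of the gene (chr1:13113457-13127163, minus strand). The widest Prdm14 peak, of 1656 bp (chr1:13126041-13127696), covered the start with 5.69 in the control and 4.96 in the knockdown. Separated from it by 39 bp, the upstream peak of 913 bp (chr1:13127736-13128648) differed in the other direction, with 3.15 in the control and 4.57 in the knockdown. The sum over Prdm14 was 85.5% of the control.

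Prdm1, also called Blimp1, drives plasma cell differentiation and germ cell specification. It had the most peaks of the 7 genes, 13 in a gene model of 91325 bp (chr10:44437177-44528501, minus strand). That model opens with a noncoding transcript, and the coding transcripts start further downstream, at positions 44458748, 44458687 and 44457210. Peaks lay at both kinds of start.

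At the coding starts, the peak of 738 bp (chr10:44458030-44458767) had 3.21 in the control against 3.19 after knockdown, and the next one, of 695 bp (chr10:44457072-44457766), had 3.29 and 4.23. The peak of 824 bp after it (chr10:44456082-44456905), 305 bp from the nearest coding start and over a coding exon of 246 bp, had 4.63 in the control and was listed at 0 in the knockdown. In linear terms, 24.8 normalized reads stood against a value at or under 1, and the weights behind the overall mean put it at 0.660. Among 4161 peaks with at least as high an overall mean, 2 had a listed difference as low, itself included. A gap of 166 bp separated this peak from one that was higher in the knockdown.

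Further Prdm1 peaks differed in both directions. An intronic peak of 384 bp (chr10:44453649-44454032) had 3.21 in the control against 0.52 after knockdown, and one of 515 bp upstream of the coding starts (chr10:44464671-44465185) had 3.62 and 2.15. Higher in the knockdown were the peak upstream of the gene model (chr10:44532534-44533201), at 4.05 against 2.28, and one at the last coding exon (chr10:44439941-44440462), at 3.58 against 2.36. The widest Prdm1 peak (chr10:44526771-44527942, 1172 bp) had 5.17 in the control against 5.35 after knockdown, and the peak over the noncoding start (chr10:44527951-44528877) had 4.59 and 4.28. Of the Prdm1 peaks, 3 were lower and 2 higher by 1 or more, beside 20.6% and 20.4% of all listed peaks. The sum of Prdm1 came to 91.3% of the control.

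Prdm16 controls brown fat fate and the upkeep of neural and blood stem cells. Its gene is the longest of the 7 (chr4:154316125-154636873, minus strand, 320749 bp), yet its 10 peaks covered 1.69% of the window. Of these, 8 were higher and 2 lower in the knockdown, where 50.8% of all listed peaks were lower. The peak over the start, 415 bp wide (chr4:154636742-154637156), had 1.84 in the control and 2.99 in the knockdown, or 3.57 and 7.94 normalized reads. The widest Prdm16 peak, of 1542 bp (chr4:154640176-154641717), lay 3303 bp upstream, over the antisense gene Gm13111, with 4.34 and 5.29. The Prdm16 sum was 136% of the control, the highest share of the 7 genes, and it rested on peaks of at most 39.3 normalized reads.

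Prdm6 acts in vascular smooth muscle. It had 12 peaks (chr18:53463583-53575907, plus strand), of which 10 formed a near-continuous stretch around its first exons. The peak over the start (chr18:53463514-53465789) had 6.20 in the control against 6.47 after knockdown, and the widest one, of 3052 bp (chr18:53465928-53468979), had 6.17 and 5.94.

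In an intron of Prdm6, a peak of 2010 bp (chr18:53470805-53472814) ended 167 bp before the start of a noncoding transcript. This peak had 4.99 in the control and 6.32 in the knockdown, or 31.9 and 79.7 normalized reads. Of the 693 peaks with an overall mean at least as high, it alone had a difference as high, at 1.32. A narrow peak 83 bp before it (chr18:53470298-53470721) was higher as well, at 3.26 against 1.88, while the peak 131 bp after it (chr18:53472946-53474177) had 5.41 and 5.46. The sum over Prdm6 was 106% of the control.

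**Figure D2:**
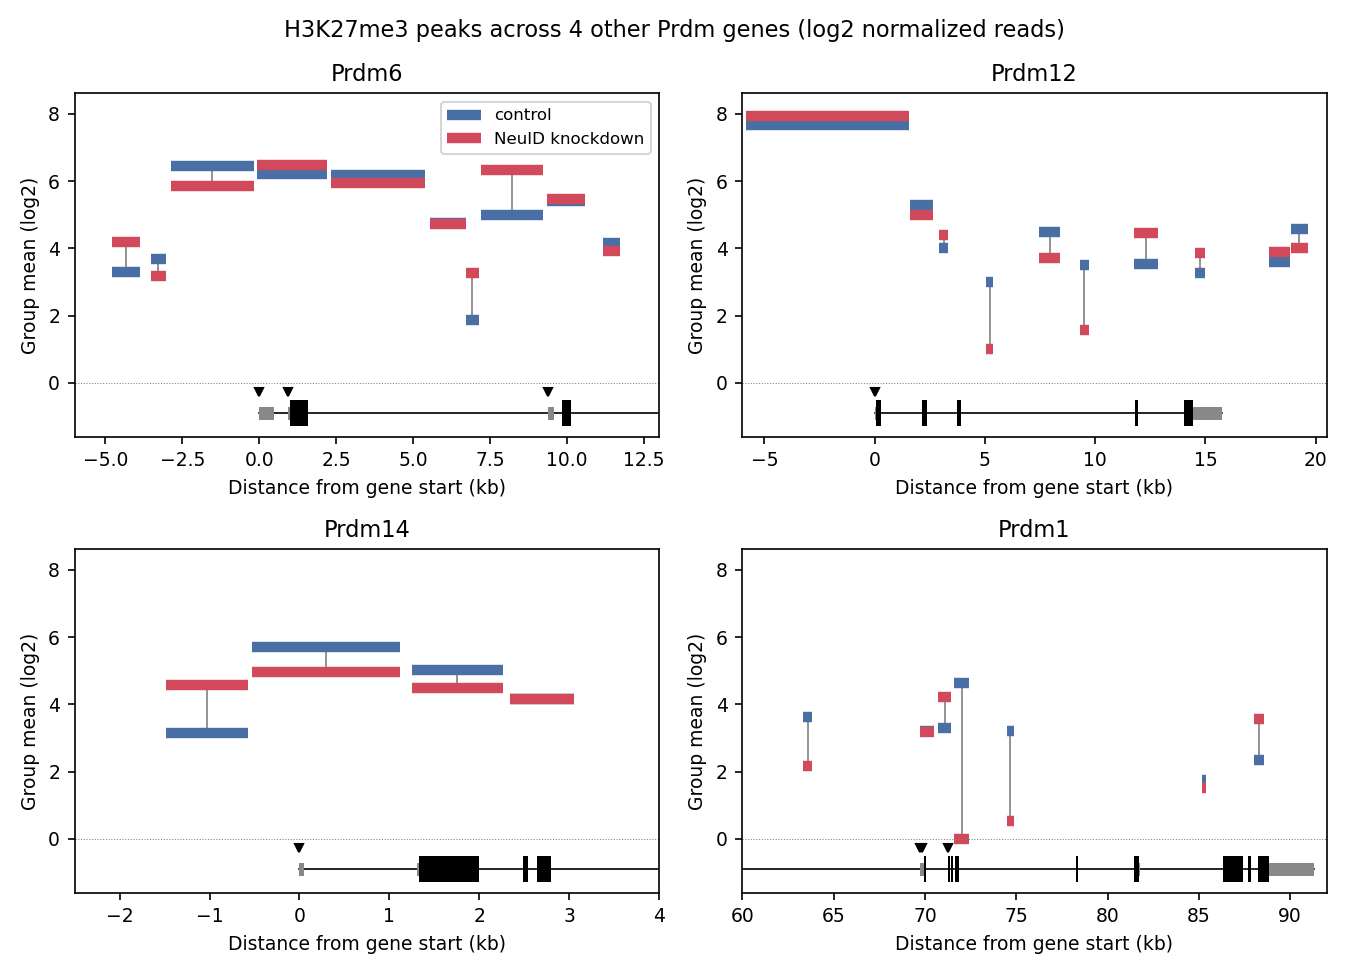
Both group means (y axis, log2 normalized reads) of peaks at Prdm6, Prdm12, Prdm14 and Prdm1 against the distance from the gene start in kb, with peaks as bars and coding exons in black. The Prdm6 panel leaves out 2 peaks and the Prdm1 panel 6, and the wide peaks at the starts of Prdm12 and Prdm6 lie close together while narrower ones inside the genes part in either direction.

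Across all 62 peaks, 8 were lower in the knockdown by a log2 difference of 1 or more, against 20.6% of all listed peaks, and 6 were higher by as much, against 20.4%. The lower peaks were 12.9% and the higher ones 9.68% of the 62, so neither share exceeded that of all listed peaks. The median difference was -0.02 over the 62 peaks and -0.02 over all 23668. Of the 62, 33 lay below 0 and 29 above, and of all listed peaks 50.8% lay below 0.

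The 62 peaks were stronger and wider than the table as a whole, with a median overall mean of 3.79 against 2.93 and a median width of 728 bp against 426 bp. Large differences are rarer among strong peaks, so the counts were read by strength as well. At an overall mean of 4 or more there were 25 Prdm peaks, of which 1 was lower (Prdm13) and 1 higher (Prdm6), beside 9.12% and 5.02% of all such peaks. Below 4 there were 37, with 7 lower and 5 higher, beside 22.5% and 22.9%. None of the 7 strongest peaks, at 6 or more, differed by 1, and they ranged from -0.57 to 0.27. Of all listed peaks of that strength, 1.14% were lower and 0.190% higher by as much.

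**Figure D3:**
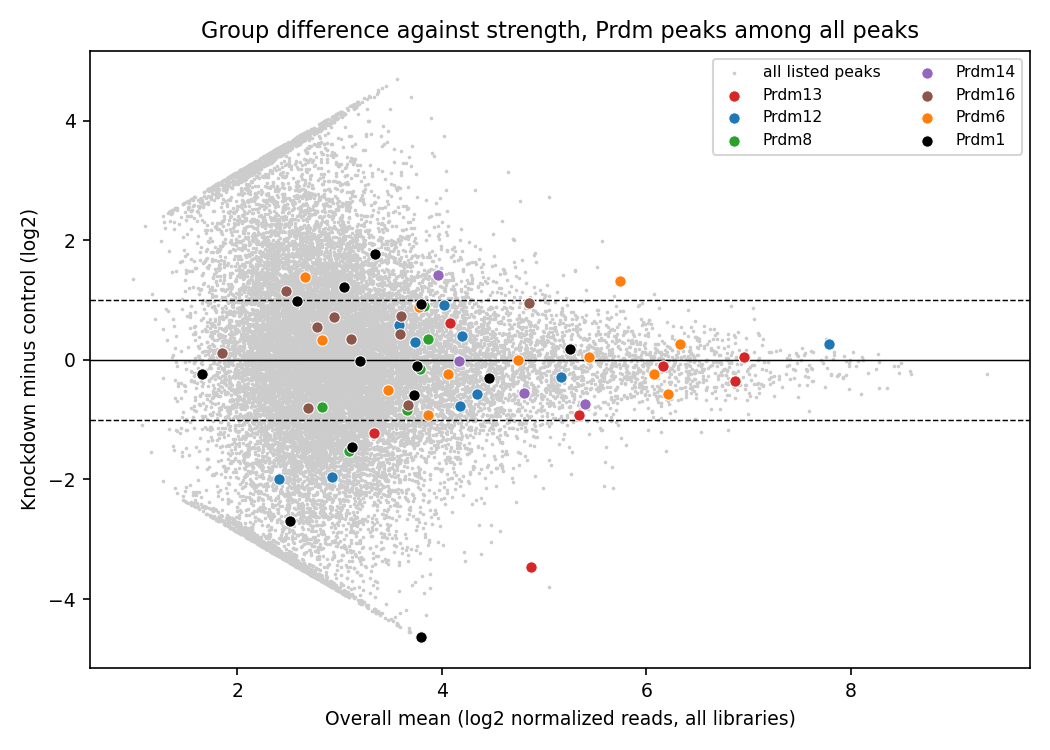
Knockdown minus control (y axis, log2) against the overall mean (x axis, log2 normalized reads) for all 23668 peaks in grey and the 62 Prdm peaks in colour, with dashed lines at a difference of 1 either way. The Prdm13 peak at -3.47 and the Prdm6 peak at 1.32 stand at the outer edge of the points of their strength, and the slanted edges hold peaks with a group listed at 0.

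Width and place in the gene were looked at in the same manner. Of the 18 Prdm peaks of 1 kb or more, 1 was lower and 1 higher, beside 7.91% and 5.08% of all such peaks, and of the 44 narrower ones 7 were lower and 5 higher, beside 22.0% and 22.1%. Of the 8 Prdm peaks of 2 kb or more, all but the Prdm6 peak at 1.32 lay between -0.57 and 0.27. The 9 peaks over a transcript start ranged from -0.73 to 1.15, and their median overall mean was 5.40. The 8 lower peaks had a median width of 449.5 bp and a median CpG ratio of 0.297. The 6 higher ones had 595 bp and a like ratio of 0.311. Both widths lay below the median of the 62 peaks (728 bp) and above that of all listed peaks (426 bp). The peaks over a transcript start had a median ratio of 0.641. For all 62 peaks the CpG ratio had a median of 0.322, and for all listed peaks 0.218.

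**Figure D4:**
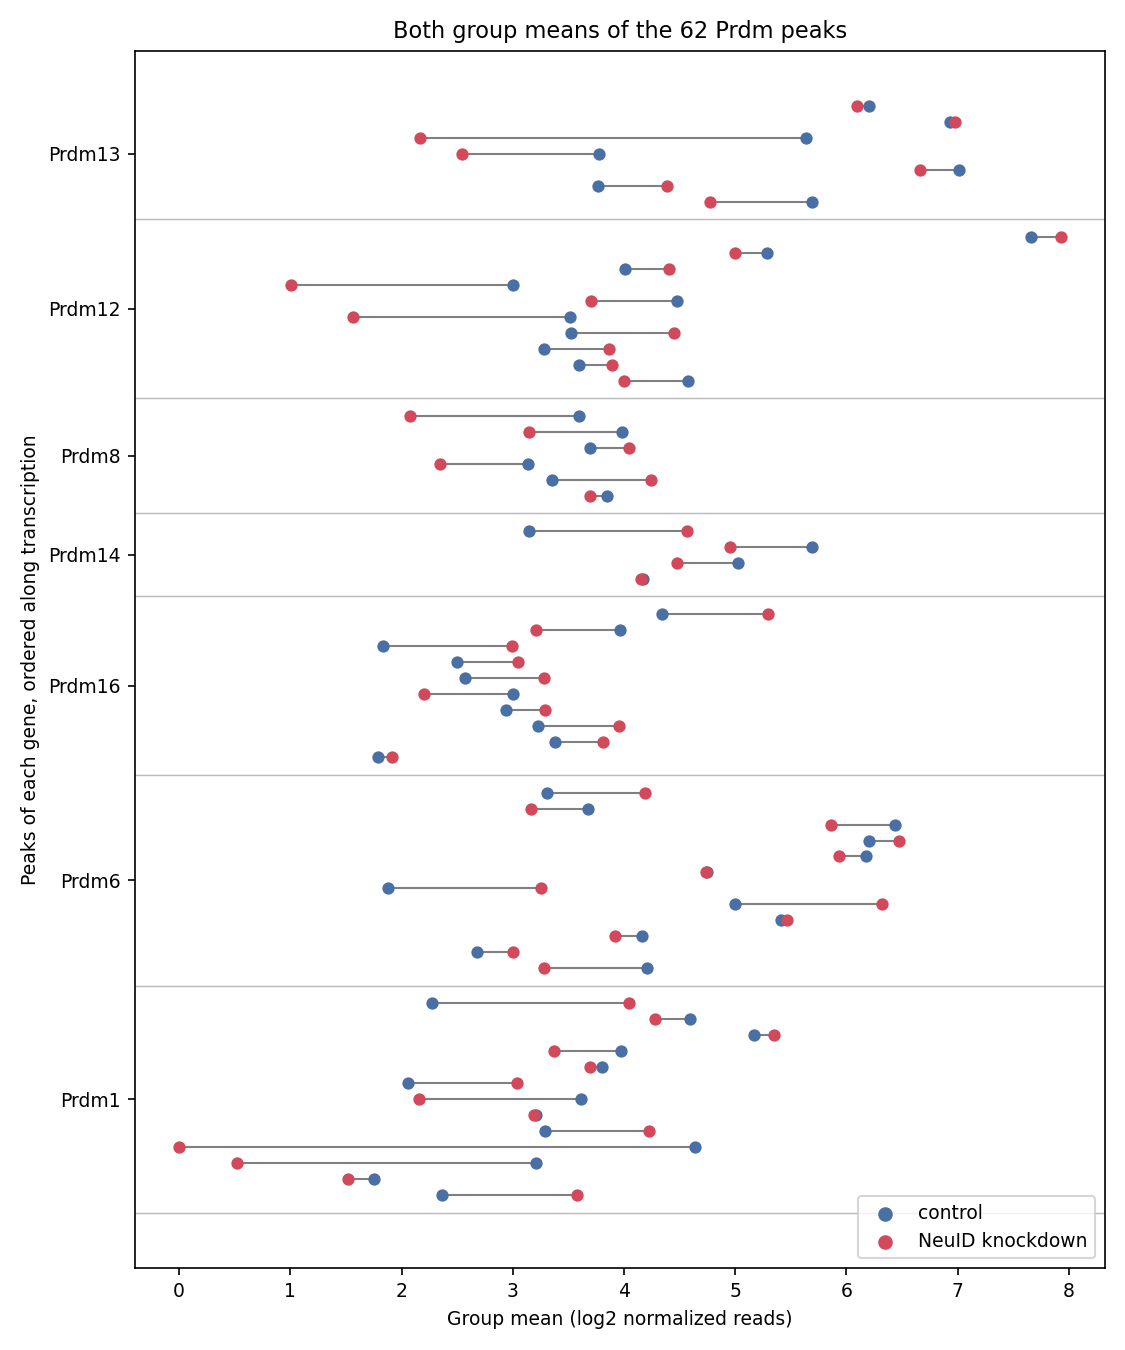
Control (blue) and knockdown (red) means of all 62 peaks on the x axis (log2 normalized reads), grouped by gene on the y axis and ordered along transcription. The pairs farthest apart belong to Prdm1 (4.63 and listed at 0) and Prdm13 (5.64 and 2.17), and in Prdm16 most red points lie to the right.

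At the level of gene sums, 0 of the 7 genes differed by 1 on the log2 scale, beside 13.8% of the 6154 protein-coding genes that were lower and 17.6% that were higher by as much. The 7 genes ranked from 76th (Prdm13) to 689th (Prdm8) of the 6154 by control sum, so most of the 6154 had a lower one. Among the 76 genes with a control sum at least that of Prdm13, 0.00% were past the limit in either direction. Those 76 include only Prdm13 of the 7, and no share among genes of like sum was computed for the others. The sums ranged from -0.36 for Prdm13 to 0.44 for Prdm16. By control sum the order was Prdm13, Prdm6, Prdm12, Prdm1, Prdm14, Prdm16 and Prdm8. Whether neighbours in this order differ beyond the spread between libraries could not be judged from group means.

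**Figure D5:**
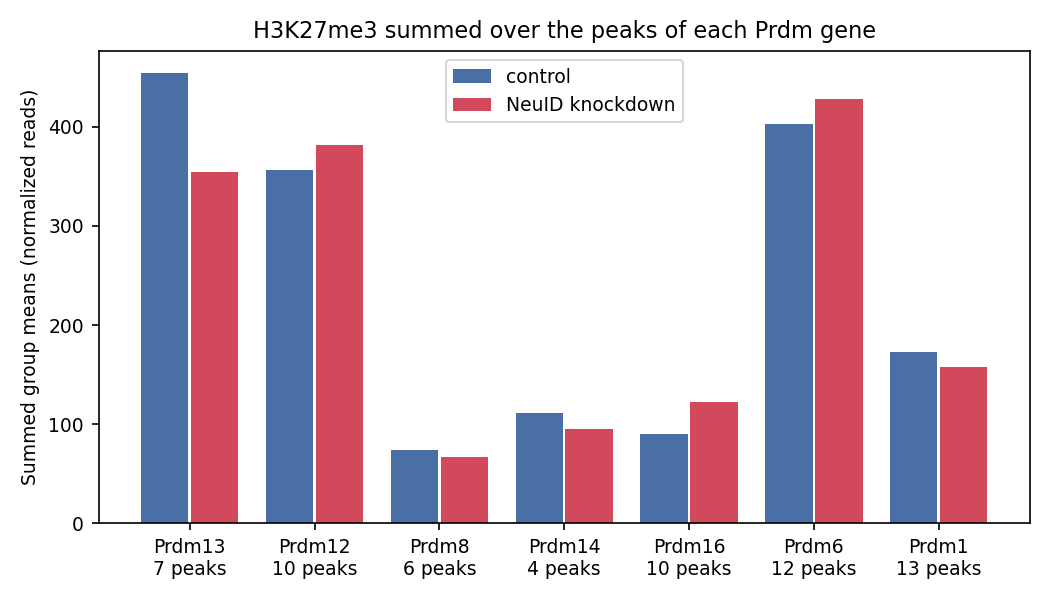
Group means summed over the peaks of each of the 7 genes (y axis, normalized reads, from 0), control in blue and knockdown in red, without error bars because values per library were not analysed here. Prdm13 goes from 454 to 355 and Prdm16 from 90.0 to 122, and the other 5 pairs lie closer together in proportion.

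Among other genes of the family, Prdm2, Prdm4, Prdm9, Prdm10, Prdm11 and Prdm15 had 0 listed peaks each. The proto-oncogene Mecom (Prdm3) had 24 peaks over a long gene. At Mecom 7 peaks were lower and 3 higher by 1 or more, with a median difference of -0.48, its lowest at -3.20 and its highest at 2.38. These are 29.2% and 12.5% of its peaks, beside 20.6% and 20.4% of all listed peaks, and the median overall mean at Mecom was 3.09. The widest Mecom peak, of 7084 bp (chr3:30508313-30515396), had 7.63 in the control and 7.53 in the knockdown, while a peak of 1864 bp (chr3:30503777-30505640) in the same stretch had 5.58 and 3.91.

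Genes that work with the Prdm factors were taken from a list of textbook partners and targets. The 12 neural partners, among them Ptf1a, Bhlhe22, Lbx1 and Tlx3, all had peaks, 65 in total, of which 6 were lower and 11 higher by 1 or more, with a median difference of -0.08. These are 9.23% and 16.9% of the 65, beside 20.6% and 20.4% of all listed peaks. The 65 were stronger than the table as a whole, with a median overall mean of 4.42 against 2.93. Of all listed peaks at an overall mean of 4 or more, 9.12% were lower and 5.02% higher. Ptf1a, the partner of Prdm13, had 1 of its peaks past the limit, a peak of 1089 bp (chr2:19452065-19453153) with 3.57 in the control and 5.13 in the knockdown. The germ cell partners had 6 peaks at 2 of 4 genes, with 2 lower (33.3%, beside the same 20.6%), and the fat partners had 2 peaks at 1 of 3 genes, with 0 past the limit in either direction.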

How the data were processed

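Primary hippocampal neurons with and without NeuID knockdown had been profiled for H3K27me3 by ChIP-seq, and 1 peak table was used. Per the methods and labels, single-end reads were aligned by the authors with bowtie2 to mm10, MACS2 was run for broad peaks, and DiffBind compared the groups. The deposited log2 values are the authors' mean normalized reads, given per group and overall. How reads were normalized, duplicate removal, input subtraction and the merging of peaks are not given in the sources used here, and a mean at or under 1 normalized read is listed at 0. The table also holds the fold change, p-value and FDR of the authors' comparison, which were not used, so no count model was fitted and no test made. The number of unused per-sample columns was 0. Depth per library is unknown.

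Groups came from the sample titles. Peaks were assigned by overlap of at least 1 bp with GENCODE M21 genes extended by 5 kb. Differences were knockdown minus control, and gene sums added linear means. All 23642 peaks on the 21 chromosomes lay inside GRCm38, and 26 lay on scaffolds. Sequences came from GRCm38, promoters from RefSeq (5 of 7 genes matched). Named were all Prdm13 peaks and, for the other genes, the widest peak, the peak nearest the start and every peak past a difference of 1 or listed at 0. Values for the Mecom stretch, for the coding starts of Prdm1 and for peaks beside a named one were added after they were seen. The members and lists were chosen with earlier results of these data known. Scripts were tested on simulated data. Alternatives changed the window, overlap, limits, filters, centring and summary. Calculations used Python 3.11.15, numpy 2.4.6 and pandas 2.3.3.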

Additional observations from a re-analysis of the deposited data

How the results depend on the processing

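No paired analysis was possible because only group means were listed. For the same reason libraries could not be left out in turn. A change of a median or sum by less than 0.1 was taken as no move, since no spread between libraries was at hand. A count was taken as unmoved if it changed by a factor of 1.5 or less.

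Keeping peaks with an overall mean of 4 or more, the 62 Prdm peaks became 25, with 1 lower and 1 higher by 1 or more. Keeping peaks of at least 500 bp left 46, with 4 lower and 4 higher. A limit of 1.5 times gave 17 lower and 16 higher peaks (30.7% and 29.7% of all peaks), and a log2 limit of 2 gave 3 and 0 (8.61% and 8.45%). Another limit changes these counts by construction, and each filter leaves fewer peaks to count. The lower share also differed by strength. It was 9.12% of all listed peaks at an overall mean of 4 or more and 22.5% below 4. The summed difference of Prdm13 moved from -0.36 to -0.77 with an unweighted mean of the log2 differences and to -0.21 without its lowest peak, lower in the knockdown each time. The median over the 7 gene sums was -0.13, where the median over peaks was -0.02. The gene body alone gave 7 lower and 4 higher peaks, and 20 kb on each side gave 10 and 8. These windows, leaving out peaks listed at 0, and an overlap of 50% moved none of these 4 results beyond the limits used. Centring on the median of all peaks raised the higher count from 6 to 7 and put the median over peaks at 0.0022. How far depth limits single peaks is unknown.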

Other observations

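Neurog1, which specifies sensory neurons and is 1 of the neural partners, had 6 peaks, of which 5 were past a difference of 1, in both directions within one locus. Of all listed peaks, 20.6% were lower and 20.4% higher by 1 or more, and at the partner Tlx1 0 of 7 peaks were. A Neurog1 peak of 459 bp (chr13:56254437-56254895) had 4.17 in the control and 1.21 in the knockdown. The peak of 961 bp nearby (chr13:56256545-56257505) had 2.66 and 4.75. At Neurog2, a relative, a peak of 744 bp (chr3:127627506-127628249) had 1.92 in the control and 4.65 in the knockdown. Kit, the receptor of germ and blood stem cells, had 2 peaks, and both were lower, with 3.49 against 1.21 at the wider one (chr5:75598109-75598634).

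Outside the 5 kb limit, the nearest peak differed by 1 or more at 3 of the 7 genes. Of all listed peaks, 20.6% were lower and 20.4% higher by as much. At Prdm6 it lay 7073 bp from the gene body (chr18:53456123-53456510) and had 3.44 in the control against 0.38 after knockdown. At Prdm1 it lay at 9730 bp (chr10:44538231-44538528) with 1.76 and 3.34, and at Prdm8 at 18697 bp (chr5:98148285-98148501) with 1.24 and 2.84.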
